A study of Mus musculus with 18 samples.

Results

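Interferon response genes are the genes that cells switch on when a type I or type II interferon binds its receptor, and 34 of them were followed here in mouse embryonic stem (ES) cells with and without the chromatin remodeller Snf2h. The members were chosen by name, by an exact match of their gene symbols to the deposited count table, and all 34 were found among its 24116 genes. They cover RNA sensors, the transcription factors of the response, the Oas and Ifit families, other antiviral effectors, the ISG15 system, the Parp9-Dtx3l-Parp14 group and further induced genes.

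The 18 libraries were made from poly(A) RNA of ES cells of the 129S6/SvEvTac strain, kept in serum with leukemia inhibitory factor. The genotypes sequenced were Snf2h ko cells that re-express wild-type Snf2h (wild-type add-back, 3 libraries), Snf2h ko cells that re-express an ATPase-mutant Snf2h (mutant add-back, 2 libraries), Snf2h ko cells (5 libraries) and wild-type cells (8 libraries). Snf2h, the product of Smarca5, is the ATPase of the ISWI remodelling complexes, which slide and space nucleosomes, so both add-back lines carry the same deletion as the ko line. According to the labels, the ko and mutant add-back lines spent at minimum the early passages after thawing on fibroblast feeders from mouse embryos, whereas the other cells were grown on gelatin, so feeder culture and genotype cannot be told apart. No interferon or virus treatment is given in the labels, and all levels described here are therefore basal. The labels speak of biological replicates but do not tie them to separate cultures, so that the p-values measure the spread between these libraries, part of which may be technical.

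Type I interferon signals through the receptor chains Ifnar1 and Ifnar2 and the kinases Jak1 and Tyk2, which phosphorylate Stat2 among others. Stat2 and Irf9 are subunits of the factor ISGF3, which binds the interferon-stimulated response element (ISRE), while type II interferon acts through the gamma-activated site (GAS). Many interferon-induced genes also have a basal level that needs no added interferon, and pluripotent stem cells are known for a weak interferon response.

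Library totals ran from 15.3 to 37.0 M counts (M for mega) and fell into 3 depth tiers, a low tier of 11 libraries (15.3 to 19.0 M counts, wild type 6 to 8, ko 3 to 5 and all add-backs), a middle tier of 4 (22.9 to 25.3 M counts, wild type 1 and 2, ko 1 and 2) and a high tier of 3 (31.0 to 37.0 M counts, wild type 3 to 5). The labels name no batch, and the tiers are used below only as sets of libraries of like depth. Replicates of 1 genotype differed more between tiers than within them for several members, and within-tier values are given beside the pooled ones. Smarca5 itself averaged 86.0 ± 3.63 counts per M counts of library (CPM) in wild-type add-back cells, 58.5 ± 14.3 CPM in mutant add-back cells, 9.36 ± 0.59 CPM in ko cells and 185 ± 29.1 CPM in wild-type cells (SD), and its ko libraries all lay below the other groups. All 8 ES cell markers examined (Pou5f1 and Sox2 among them) averaged at least 1 CPM in every group. Leukocyte markers summed to 51.5 to 55.5 CPM in wild-type add-back, 77.7 to 89.2 CPM in mutant add-back, 73.9 to 87.5 CPM in ko and 46.6 to 84.7 CPM in wild-type libraries, with 2 of the 4 tested higher and 2 lower in ko than in wild-type cells, and Adgre1 at 0 in both add-back groups. Markers of embryonic fibroblasts, the feeder cell type, summed to 828 to 846 CPM in wild-type add-back libraries, 1760 to 1855 CPM in mutant add-back libraries, 1299 to 3307 CPM in ko libraries and 611 to 1022 CPM in wild-type libraries. Of the 17 fibroblast markers tested, 14 were higher in ko than in wild-type cells and 2 were lower (26.8% and 28.2% of all tested genes), with a median log2 fold change of 1.76. In wild-type add-back against ko cells 0 were higher and 14 lower (22.5% and 22.4% of all tested genes), with a median of -3.02. Sparc made up most of these sums, with a mean of 1808 CPM in ko cells against 753 CPM in wild-type cells. Of the 20 markers listed, Lum was at 0 in the mutant add-back and ko libraries and Dcn averaged 0.04 CPM in ko cells. The part of feeder or leukocyte RNA in the differences described below was not tested, and in bulk RNA fewer expressing cells and less RNA per cell cannot be told apart.

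Most of the response was at a low basal level. Group means reached 1 CPM in all 4 groups for 18 members, in only some groups for 4 members (Ifit2, Oas3, Oasl1 and Gbp2) and in no group for 12 members. These 12 under 1 CPM throughout were Ifit1, Ifit3, Isg15, Irf7, Mx1, Mx2, Ifi44, Ifih1, Oas1b, Ifi27, Usp18 and Rsad2. Among them are the genes most used as readouts of an interferon response, such as Isg15, which encodes a ubiquitin-like modifier, and Mx1, a dynamin-like antiviral GTPase. The first 8 of the 12 did not pass the filter on low counts and were not tested, which left 26 members in the fit. The filter asks for counts in as many libraries as the smallest group holds. A member such as Gbp2, Ifit2, Oas3 or Rsad2 that passed through its high groups alone thus had to differ. The counts below describe the tested members, not the whole list. Usp18 passed only through ko 1 and ko 2, and Ifi27 only through ko 1 and mutant add-back 1. Their higher ko values were thus favoured in advance.

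Per length of exon, Bst2 led the members in every group, with 63.7 CPM per kb in wild-type add-back, 77.9 CPM per kb in mutant add-back, 69.7 CPM per kb in ko and 55.1 CPM per kb in wild-type cells. Bst2 encodes tetherin, which holds budding virus particles at the cell surface. Trim25, a ubiquitin ligase that activates the RNA sensor RIG-I, was the next highest at 41.2, 46.2, 51.4 and 39.2 CPM per kb in wild-type add-back, mutant add-back, ko and wild-type cells. The level of Bst2 in wild-type add-back cells stood at percentile 91.6 of the tested genes by this measure. Usp18, the lowest tested member in wild-type add-back and wild-type cells though not in mutant add-back or ko cells, had 0.013 CPM per kb in wild-type add-back, 0.18 CPM per kb in mutant add-back, 0.30 CPM per kb in ko and 0.043 CPM per kb in wild-type cells.

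**Figure D1:**
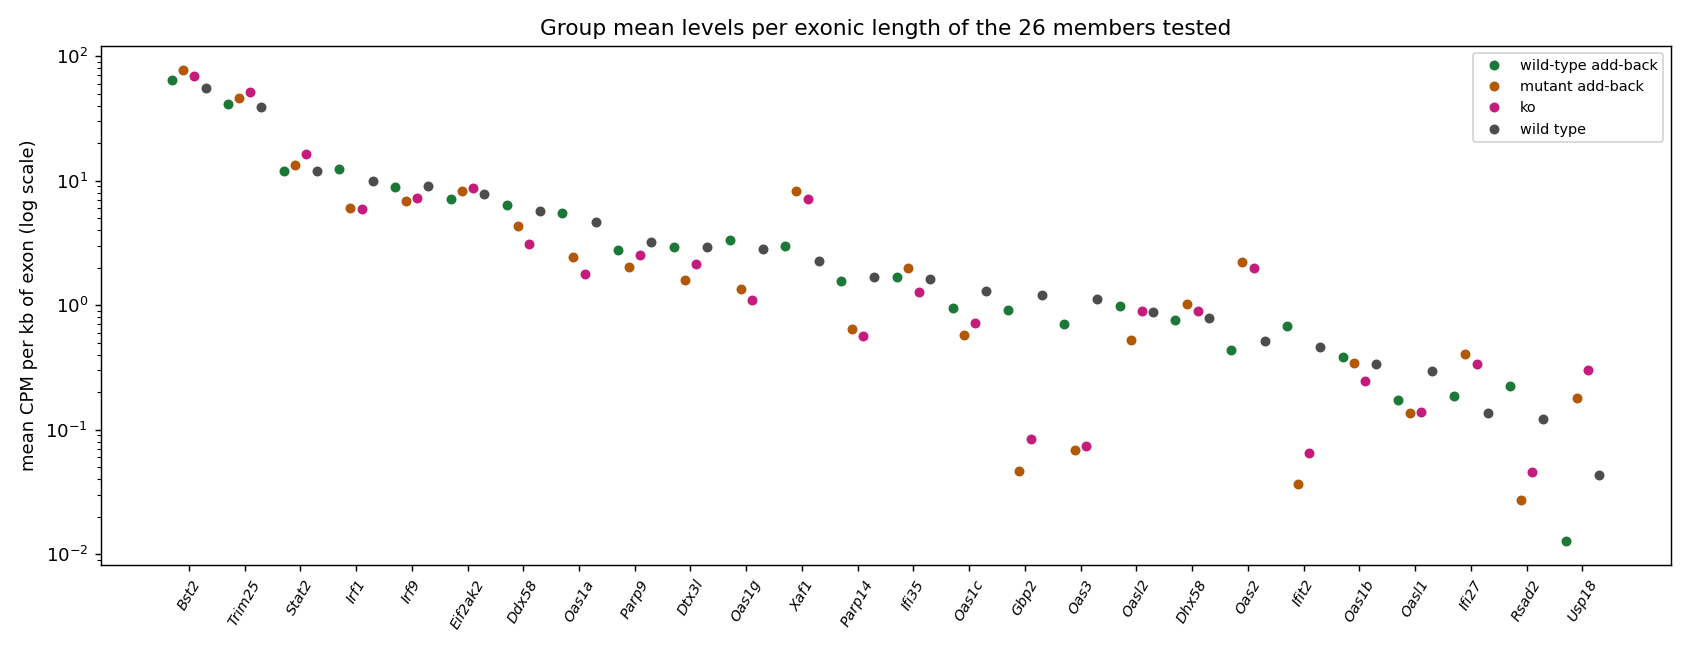
Mean level per exonic length (CPM per kb of exon, log scale) of the 26 members tested, with 1 point per group and the members ordered by their wild-type level. Bst2 and Trim25 lie highest, and Gbp2, Oas3, Ifit2 and Rsad2 show mutant add-back and ko points far below the wild-type add-back and wild-type points, while Xaf1, Oas2 and Usp18 show the opposite order.

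Members were called both lower and higher in ko cells and in wild-type add-back cells, and none was called between mutant add-back and ko cells. In ko against wild-type cells 21 of the 26 tested members passed an adjusted p of 0.05 (edgeR quasi-likelihood test, Benjamini-Hochberg adjustment over all tested genes), 14 of them lower and 7 higher. Over all 14901 tested genes the test called 55.0%, 28.2% of them being lower and 26.8% higher, so calls were common in this contrast. The median log2 fold change of the members was -0.39, beside -0.01 for all tested genes. In wild-type add-back against ko cells 15 members were called, 11 higher and 4 lower, where 45.0% of all tested genes were called, 22.5% higher and 22.4% lower. The members' median there was 0.35 against -0.01 for all tested genes. In mutant add-back against ko cells no member was called by edgeR, with 4 at an unadjusted p under 0.05 (15.3% of all tested genes), a smallest adjusted p of 0.23 and 0.322% of all tested genes called, and DESeq2 called none either.

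Between the 2 add-back lines 13 members were called, 11 higher and 2 lower in wild-type add-back cells, beside 37.0% of all tested genes (18.6% higher and 18.4% lower). The comparisons share the ko or add-back libraries and are not independent, so their values are set side by side below without being counted as agreement. Ifit2, Irf1, Irf9, Oas1a, Oas1g, Oas3, Rsad2, Ddx58, Parp14, Dtx3l and Gbp2 were called lower in ko against wild-type cells and higher in wild-type add-back against ko cells, and Oas2, Usp18 and Xaf1 were called the other way round. Stat2, Oas1c, Oasl1, Bst2, Ifi27, Parp9 and Trim25 were called in the first comparison and not in the second.

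**Figure D2:**
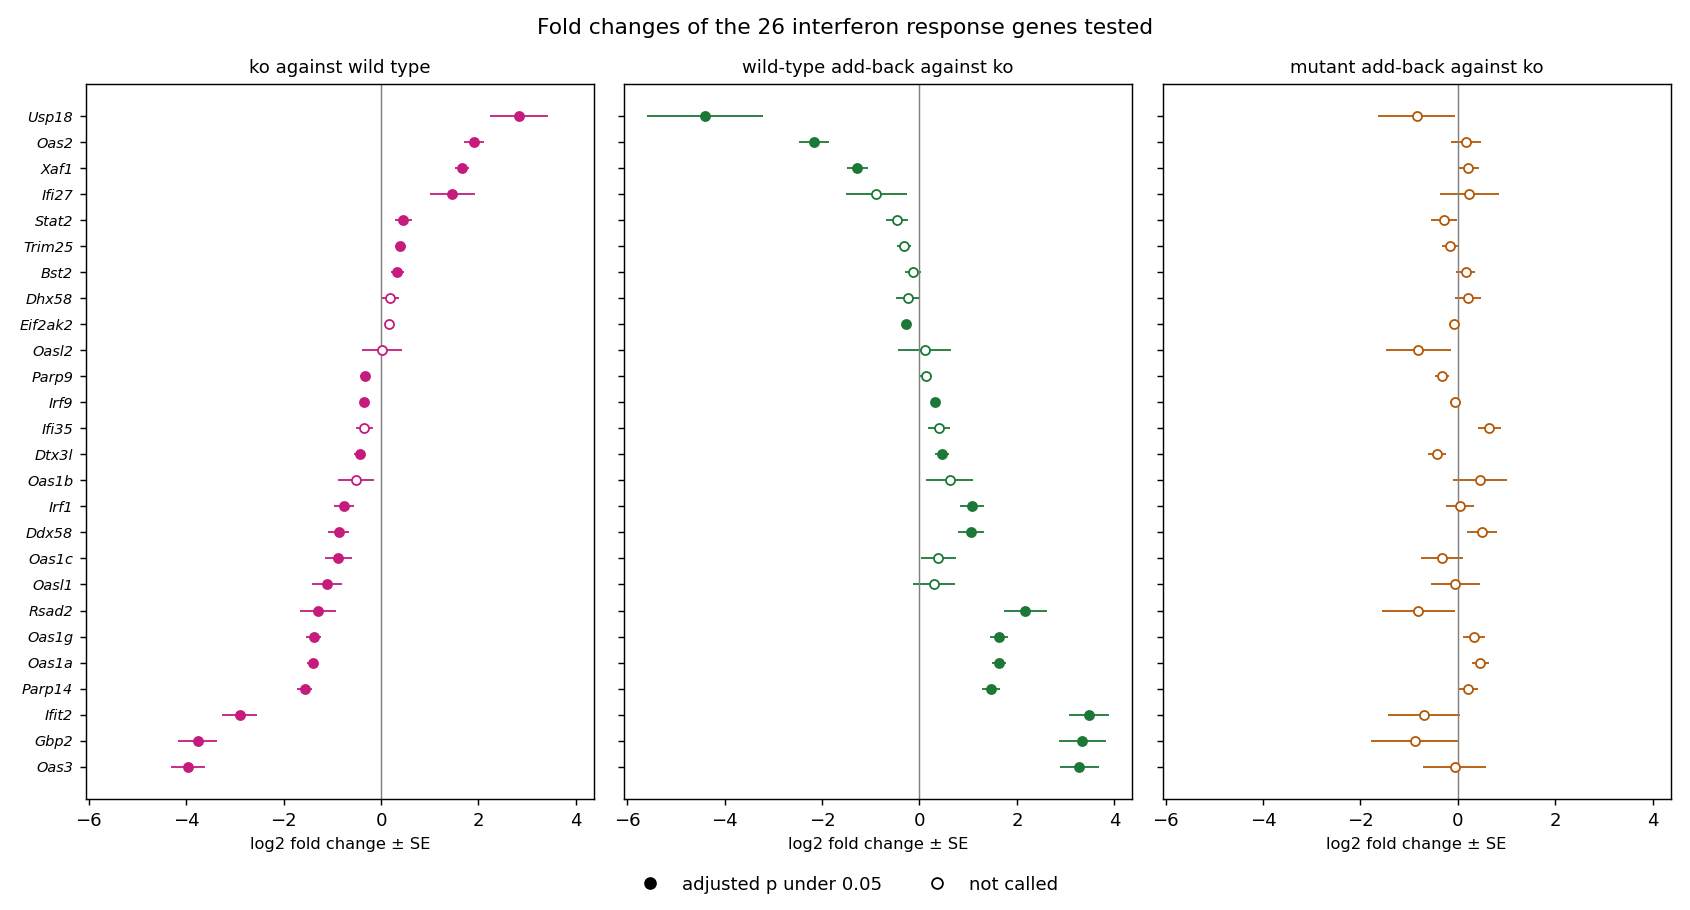
Log2 fold change (x axis, ± SE) of the 26 members tested in 3 comparisons, ordered by the ko against wild-type value, with filled points at adjusted p under 0.05. Oas3 lies at -3.96 in the ko panel and 3.28 in the wild-type add-back panel and Usp18 at 2.83 and -4.40, these 2 panels sharing the ko libraries, and all 26 points of the mutant add-back panel are open.

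**Figure D3:**
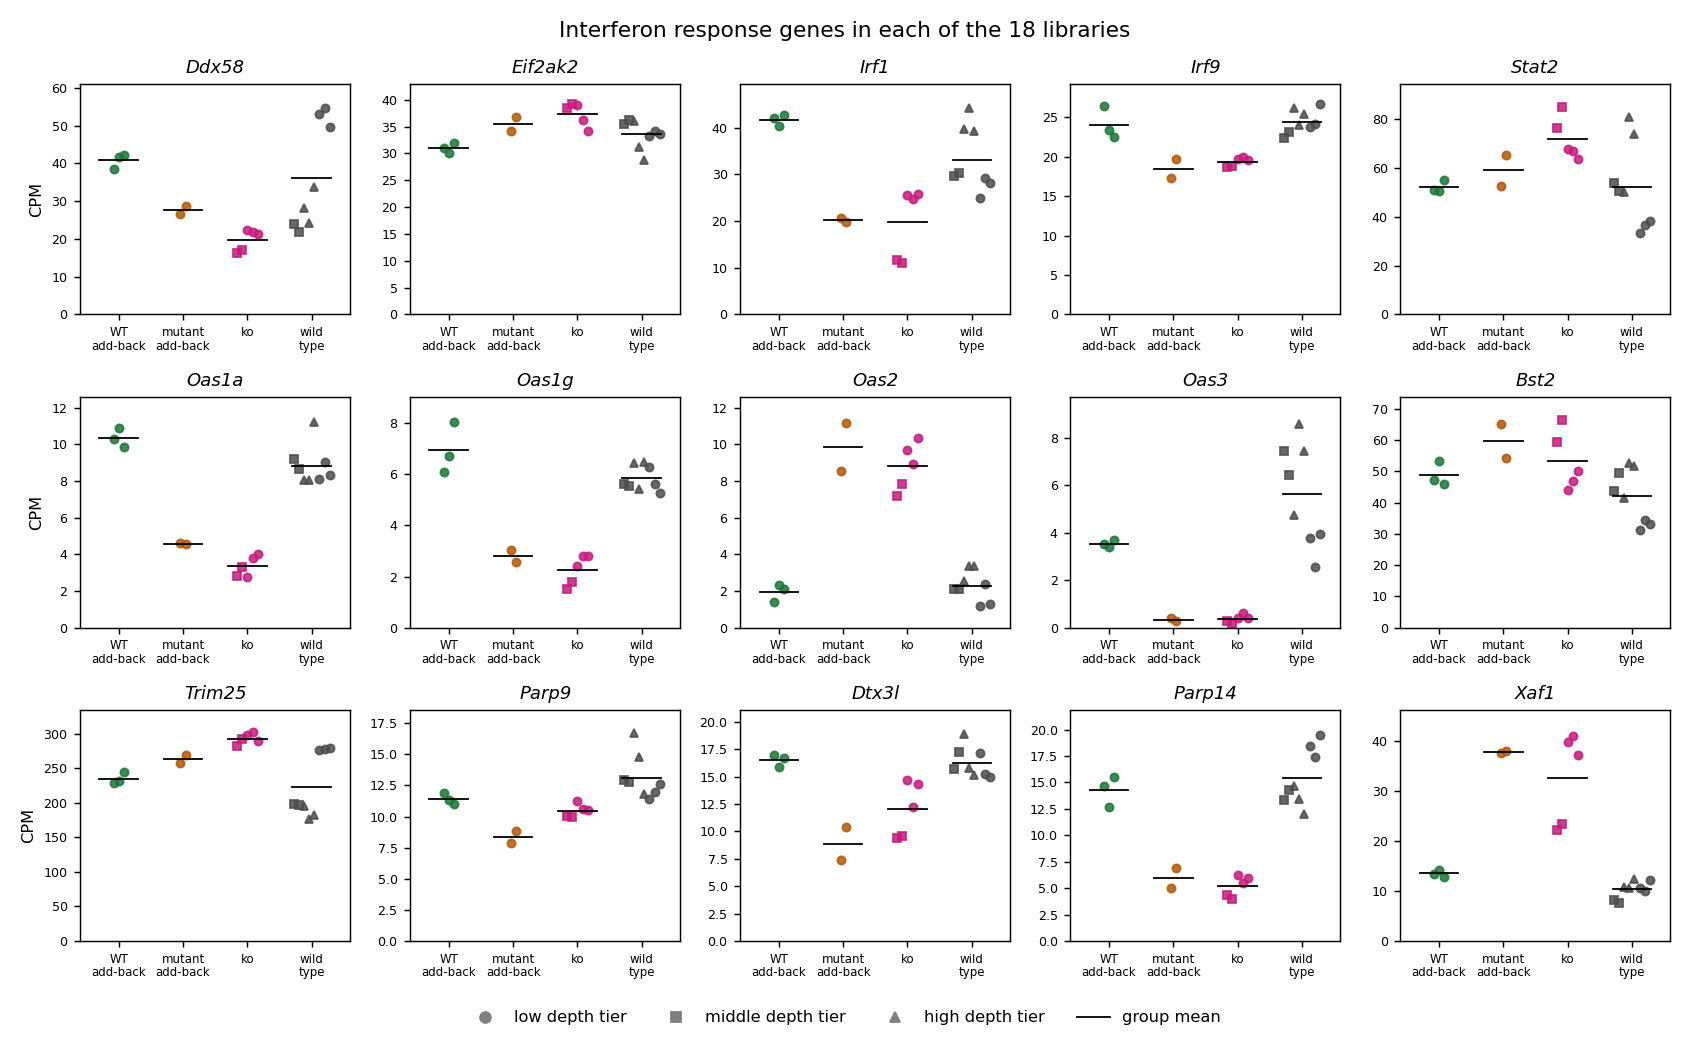
CPM in each library for the 15 members that were called in ko against wild type or in wild-type add-back against ko and reached 5 CPM in a group, with 1 panel per gene, 1 point per library, the point shape giving the depth tier and the line the group mean. Irf9, Oas1a, Oas1g, Oas3, Parp9, Dtx3l and Parp14, lower in ko, and Oas2, Trim25 and Xaf1, higher in ko, show no overlap between ko and wild-type libraries. How many of all tested genes show none was not counted. In the Irf1 panel the middle-tier ko libraries lie near 11 CPM and the low-tier ko libraries near 25 CPM.

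Among the RNA sensors, the cytosolic helicase gene Ddx58 was lower in ko cells. Ddx58 encodes RIG-I, which recognises viral RNA with a free triphosphate end. It had 38.6, 41.6 and 42.3 CPM in wild-type add-back libraries, 26.5 and 28.7 CPM in mutant add-back libraries, and 16.2, 17.2, 22.4, 21.7 and 21.2 CPM in ko libraries, while wild-type libraries ran from 21.8 CPM through a median of 31.0 to 54.7 CPM. The wild-type add-back libraries lay above both mutant libraries and all ko libraries, and 1 wild-type library fell within the ko range. The log2 fold change was -0.87 ± 0.22 (SE, adjusted p = 0.0024) in ko against wild-type cells and 1.05 ± 0.27 (adjusted p = 0.0035) in wild-type add-back against ko cells. The wild-type libraries themselves split by tier, with 21.8 and 24.0 CPM in the middle tier and 49.8 to 54.7 CPM in the low tier.

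Eif2ak2, the gene of the kinase PKR that halts translation on sensing double-stranded RNA, differed little between groups. Its levels were 31.0, 30.1 and 31.9 CPM in wild-type add-back libraries, 34.2 and 36.8 CPM in mutant add-back libraries, 38.4, 39.3, 39.0, 36.3 and 34.2 CPM in ko libraries and 28.8 to 36.1 CPM in wild-type libraries, with a median of 33.9 CPM. It was called lower in wild-type add-back against ko cells, by a log2 value of -0.27 ± 0.09, and that call needed wild-type add-back replicate 2 (-0.25 without it), and it was not called in ko against wild-type cells (0.16 ± 0.07, adjusted p = 0.051). Dhx58, which encodes the RIG-I relative LGP2, was not called in any of these comparisons and averaged 2.07 CPM in wild-type add-back, 2.80 CPM in mutant add-back, 2.44 CPM in ko and 2.14 CPM in wild-type cells. Ifih1, which encodes the sensor MDA5 for long double-stranded RNA, stayed under 1 CPM and had at most 0.34 CPM in any library.

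The transcription factors of the response did not move together. Irf1, an activator of both interferon and interferon-induced genes, had 42.0, 40.4 and 42.6 CPM in wild-type add-back libraries, 20.7 and 19.9 CPM in mutant add-back libraries, 11.7, 10.9, 25.6, 24.7 and 25.8 CPM in ko libraries and 24.9 to 44.1 CPM in wild-type libraries, with a median of 29.96 CPM. Its wild-type add-back libraries lay above every mutant and ko library, while the ko libraries formed a low pair and a trio that reached the lowest wild-type library. It was lower in ko against wild-type cells by -0.76 ± 0.20 on the log2 scale (adjusted p = 0.0038) and higher in wild-type add-back against ko cells by 1.09 ± 0.25 (adjusted p = 0.0016). In the middle tier the ko value was -1.40 ± 0.09 and in the low tier -0.11 ± 0.07, which was not called, and this difference between tiers was itself called (-1.29 ± 0.12, adjusted p = 5.8e-08).

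Irf9, the DNA-binding subunit of ISGF3, was lower in ko cells. It had 26.4, 23.3 and 22.4 CPM in wild-type add-back libraries, 17.2 and 19.7 CPM in mutant add-back libraries, 18.7, 18.8, 19.7, 19.9 and 19.6 CPM in ko libraries and 22.4 to 26.6 CPM in wild-type libraries, with a median of 24.1 CPM. No ko library reached the lowest wild-type or wild-type add-back library. The log2 fold changes were -0.34 ± 0.07 in ko against wild-type cells and 0.32 ± 0.09 in wild-type add-back against ko cells, and leaving out wild-type add-back replicate 1 ended the second call (0.24). Within tiers Irf9 was called in both, but the middle-tier call (-0.28) was lost without wild type 2, ko 1 or ko 2 (-0.31 to -0.25 over all omissions) and with scaling by library size alone (-0.22).

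Stat2, the transactivating subunit of ISGF3, went the other way. Its promoter is shown because it is 1 of 2 members with an ISRE that were higher in ko cells. The window is chr10:128270248-128270547 on the plus strand of GRCm38.p6, from 250 bases before to 50 bases after the annotated start, and capitals mark the ISRE core, here in its reverse complement and starting 222 bases before the gene's start.
Stat2: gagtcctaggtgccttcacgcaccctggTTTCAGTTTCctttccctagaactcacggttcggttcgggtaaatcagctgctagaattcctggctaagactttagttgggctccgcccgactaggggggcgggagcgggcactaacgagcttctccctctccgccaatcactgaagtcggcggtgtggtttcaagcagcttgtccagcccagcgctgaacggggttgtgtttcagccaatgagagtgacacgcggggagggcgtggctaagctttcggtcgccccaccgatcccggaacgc
Stat2 had 50.7, 50.5 and 54.9 CPM in wild-type add-back libraries, 52.6 and 65.3 CPM in mutant add-back libraries, 76.1, 84.8, 67.6, 67.0 and 63.4 CPM in ko libraries and 33.3 to 80.7 CPM in wild-type libraries, with a median of 50.3 CPM. The wide wild-type range overlapped the ko libraries, and within each tier the ko libraries lay above the wild-type ones. The log2 fold change in ko against wild-type cells was 0.46 ± 0.17 (adjusted p = 0.033) over all libraries, 0.63 ± 0.15 within the middle tier and 0.88 ± 0.13 within the low tier. The pooled call was lost on leaving out wild type 3, 6, 7 or 8 or ko 1 or 2, with values between 0.39 and 0.58 over all 18 omissions. Irf7, the factor that amplifies type I interferon production, had 0.11 to 0.51 CPM in ko libraries and 0 in all 3 wild-type add-back libraries, where 0 counts allow up to 0.064 CPM over the group.

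In the Oas family members were called in both directions in ko cells, and 2 neighbouring genes, Oas2 and Oas3, differed in opposite ones. Its enzymes make 2′-5′-linked oligoadenylates on binding double-stranded RNA. Of the 8 members tested, 5 were lower and 1 was higher in ko than in wild-type cells (28.2% and 26.8% of all tested genes), and 2 of the 5, Oas1c and Oasl1, were not called within the low tier. In wild-type add-back against ko cells 3 were higher and 1 lower (22.5% and 22.4% of all tested genes). The promoters of Oas1a, Oas1g and Oas3 are printed because these 3 genes were lower in ko than in wild-type cells and higher in wild-type add-back than in ko cells. Capitals mark the ISRE core, which is GAAA, any 2 bases and GAAA, with 2 overlapping copies of it in the first pair of genes, in windows from 250 bases before to 50 bases after a RefSeq transcript start on the minus strand of GRCm38.p6, at chr5:120907476-120907775 (Oas1a), chr5:120887564-120887863 (Oas1g) and chr5:120777610-120777909 (Oas3).
Oas1a: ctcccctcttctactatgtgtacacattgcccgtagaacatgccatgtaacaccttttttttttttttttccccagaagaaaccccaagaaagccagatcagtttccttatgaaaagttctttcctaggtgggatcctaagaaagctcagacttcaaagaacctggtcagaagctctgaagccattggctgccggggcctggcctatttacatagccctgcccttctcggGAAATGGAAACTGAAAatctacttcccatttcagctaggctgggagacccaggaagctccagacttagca
Oas1g: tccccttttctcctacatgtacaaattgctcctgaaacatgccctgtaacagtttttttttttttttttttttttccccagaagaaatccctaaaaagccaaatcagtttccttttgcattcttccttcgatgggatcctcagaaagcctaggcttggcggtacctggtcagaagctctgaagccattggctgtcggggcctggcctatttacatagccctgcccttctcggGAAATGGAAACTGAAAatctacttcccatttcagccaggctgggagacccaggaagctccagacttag
Oas3: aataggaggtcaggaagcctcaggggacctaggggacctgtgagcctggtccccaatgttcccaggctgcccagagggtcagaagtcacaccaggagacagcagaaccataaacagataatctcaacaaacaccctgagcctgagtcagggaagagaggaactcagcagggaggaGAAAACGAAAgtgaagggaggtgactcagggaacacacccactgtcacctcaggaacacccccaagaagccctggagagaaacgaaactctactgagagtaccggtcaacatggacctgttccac
Counted from the transcript start of each window, which for Oas1a and Oas3 lies inside the annotated gene, the core starts 20 and 14 bases before that of Oas1a, 18 and 12 bases before that of Oas1g and 75 bases before that of Oas3. The Oas1a and Oas1g windows were 85.3% identical over their alignment, whereas Oas1a and Oas3 were 48.4% identical.

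Oas1a had 10.3, 10.9 and 9.84 CPM in wild-type add-back libraries, 4.60 and 4.55 CPM in mutant add-back libraries, 2.84, 3.29, 2.77, 3.81 and 4.01 CPM in ko libraries and 8.04 to 11.2 CPM in wild-type libraries, with a median of 8.49 CPM. Oas1g had 6.07, 6.71 and 8.02 CPM in wild-type add-back libraries, 3.04 and 2.56 CPM in mutant add-back libraries, 1.50, 1.78, 2.43, 2.81 and 2.79 CPM in ko libraries and 5.26 to 6.49 CPM in wild-type libraries, with a median of 5.62 CPM. For both genes every ko and mutant add-back library lay below every wild-type and wild-type add-back library. The log2 fold changes in ko against wild-type cells were -1.41 ± 0.12 for Oas1a and -1.38 ± 0.15 for Oas1g, and both were 1.63 in wild-type add-back against ko cells (SE 0.15 and 0.19). These 2 genes share sequence. Of the 50-base stretches of the Oas1a transcripts 57.6% also occur in other genes, mostly Oas1g. Of those of Oas1g 45.7% also occur elsewhere, mostly in Oas1a. How reads matching both were counted is not given in the sources used here, so the counts of each are uncertain.

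Oas3, which encodes the long family member that binds long double-stranded RNA, had the most negative log2 fold change of the 26 members in ko against wild-type cells, with Gbp2 (-3.76) within its SE. It had 3.51, 3.38 and 3.71 CPM in wild-type add-back libraries, 0.40 and 0.28 CPM in mutant add-back libraries, 0.28, 0.15, 0.40, 0.64 and 0.41 CPM in ko libraries and 2.56 to 8.57 CPM in wild-type libraries, with a median of 5.60 CPM. All ko and mutant add-back libraries were below 1 CPM and all others above it. Oas3 passed the filter on low counts only through those others, so its lower ko values were favoured in advance. The log2 fold change was -3.96 ± 0.35 in ko against wild-type cells (adjusted p = 2.7e-08) and 3.28 ± 0.40 in wild-type add-back against ko cells (adjusted p = 3.4e-06). It was -4.97 ± 0.36 within the middle tier and -2.82 ± 0.31 within the low tier, and this difference between tiers was called.

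Oas2, whose gene body lies 3.21 kb from that of Oas3 on the same strand, was higher in ko cells. It had 1.41, 2.34 and 2.09 CPM in wild-type add-back libraries, 8.56 and 11.2 CPM in mutant add-back libraries, 7.21, 7.85, 9.71, 8.95 and 10.3 CPM in ko libraries and 1.20 to 3.36 CPM in wild-type libraries, with a median of 2.24 CPM. The ko and mutant add-back libraries all lay above the wild-type and wild-type add-back libraries. Its log2 fold change was 1.91 ± 0.21 in ko against wild-type cells (adjusted p = 4.5e-07), -2.17 ± 0.31 in wild-type add-back against ko cells (adjusted p = 1.8e-05) and -2.34 ± 0.35 in wild-type add-back against mutant add-back cells (adjusted p = 5.3e-05).

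Of the remaining Oas members, Oas1c averaged 2.16 CPM in wild-type add-back, 1.31 CPM in mutant add-back, 1.65 CPM in ko and 2.98 CPM in wild-type cells and was called lower in ko cells (-0.87 ± 0.28), a call that was absent within the low tier (-0.09 ± 0.27). Oasl1, an Oas-like gene without synthetase activity, was lower in ko cells too, at -1.11 ± 0.31, and likewise not called within the low tier (-0.38 ± 0.38). Its neighbour Oasl2 averaged 3.08 CPM in wild-type add-back, 1.63 CPM in mutant add-back, 2.80 CPM in ko and 2.76 CPM in wild-type cells, with no call over all libraries (0.02 ± 0.41). Within tiers the Oasl2 values were 1.41 ± 0.24, which was called, in the middle tier and -0.31 ± 0.27, which was not, in the low tier. Oas1b, which the mouse reference annotates as a transcribed pseudogene, stayed under 1 CPM in every group and was not called.

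The cluster on chromosome 5 spans 191.3 kb and holds 10 Oas genes, 6 of them members. From the Oas2 end the order is Oas2, Oas3, Oas1e, Oas1c, Oas1b, Oas1f, Oas1h, Oas1g, Oas1a and Oas1d. Oas1d is no member but lies at the far end, and it too was lower in ko against wild-type cells (-1.99) and higher in wild-type add-back against ko cells (2.13). Oas1e, Oas1f and Oas1h had 25, 3 and 1 counts in total over the 18 libraries.

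**Figure D4:**
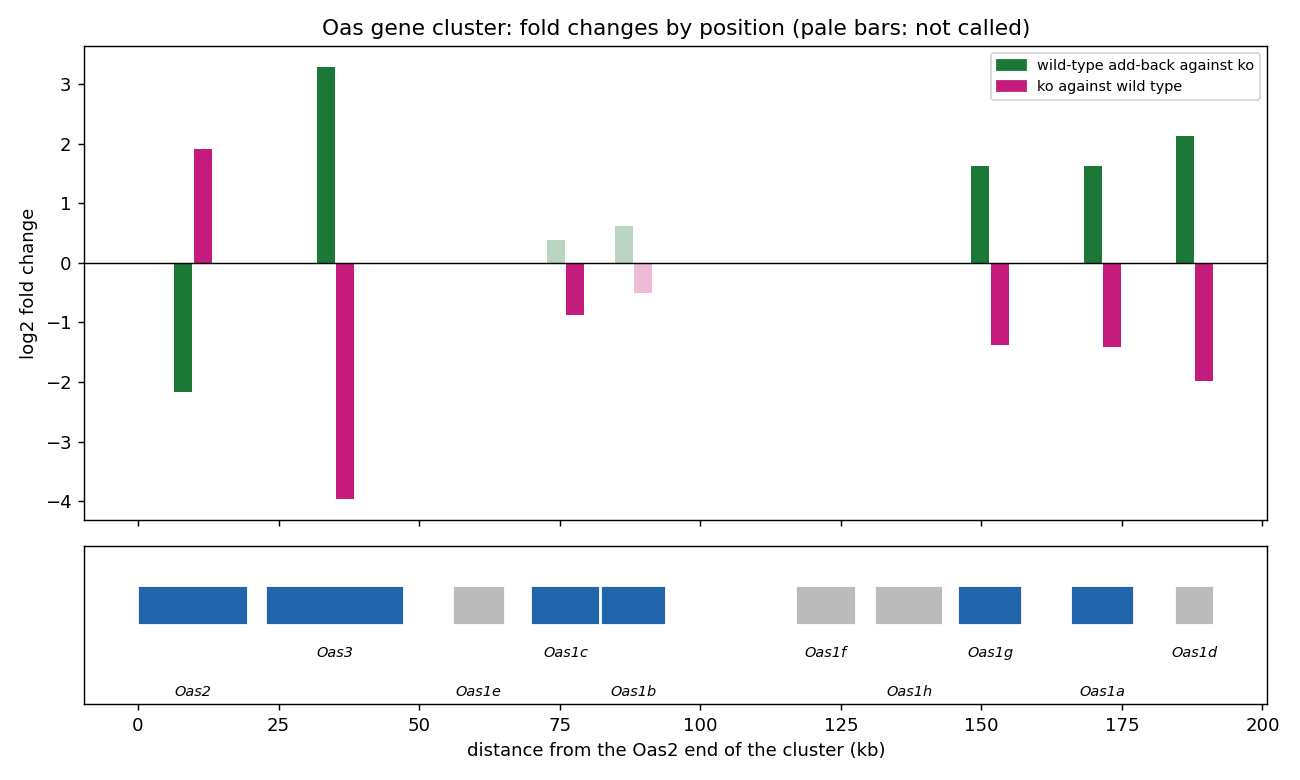
Log2 fold changes (bars, y axis) of the Oas genes with enough counts, at their distance in kb from the Oas2 end of the cluster, above a map of the 10 genes in which blue boxes are members and grey boxes are not. Oas2 at the left end has a positive ko bar of 1.91, Oas3 next to it a negative one of -3.96, and Oas1g, Oas1a and Oas1d at the right end have negative ko bars with positive wild-type add-back bars.

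Ifit2 was the member of the Ifit family with counts enough to test. It passed the filter on low counts only through its wild-type and wild-type add-back libraries, so its lower ko values were favoured in advance. The Ifit proteins bind viral RNA that lacks the host cap methylation. Ifit2 averaged 2.70 CPM in wild-type add-back cells (2.40 to 3.13), 0.14 CPM in mutant add-back cells (0.11 to 0.17), 0.25 CPM in ko cells (0.039 to 0.58) and 1.81 CPM in wild-type cells (1.36 to 2.72). Its ko and mutant add-back libraries did not reach any wild-type or wild-type add-back library. It was lower in ko against wild-type cells by -2.90 ± 0.36 (adjusted p = 2.0e-06) and higher in wild-type add-back cells by 3.48 ± 0.41 over ko and by 4.18 ± 0.63 over mutant add-back cells. Ifit1 and Ifit3 lie on the same stretch of chromosome 19 and had at most 0.27 and 0.11 CPM in any library, and Ifit3 shares 51.2% of its 50-base stretches with other genes, mostly Ifit3b.

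Among the other antiviral effectors, Bst2 was slightly higher and Rsad2 lower in ko cells. The Bst2 promoter is printed as that of the highest member per length. Its window is chr8:71537423-71537722 on the minus strand of GRCm38.p6, and capitals mark 2 overlapping ISRE cores that start 130 and 124 bases before the start.
Bst2: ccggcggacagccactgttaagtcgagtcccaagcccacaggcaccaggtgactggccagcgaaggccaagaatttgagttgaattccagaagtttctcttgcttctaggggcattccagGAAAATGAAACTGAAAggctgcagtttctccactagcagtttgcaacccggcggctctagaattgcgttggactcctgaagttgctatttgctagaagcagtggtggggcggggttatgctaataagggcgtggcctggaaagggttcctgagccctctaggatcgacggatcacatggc
Bst2 had 47.2, 53.2 and 45.9 CPM in wild-type add-back libraries, 65.1 and 54.2 CPM in mutant add-back libraries, 59.4, 66.6, 43.9, 46.8 and 50.1 CPM in ko libraries and 31.3 to 52.5 CPM in wild-type libraries, with a median of 42.5 CPM. Both mutant add-back libraries lay above all wild-type add-back and wild-type libraries, and the ko libraries overlapped every other group. The ko against wild-type log2 fold change was 0.34 ± 0.13 (adjusted p = 0.038) over all libraries, 0.44 ± 0.11 within the middle tier and 0.51 ± 0.10 within the low tier, and the pooled call was lost on leaving out wild type 3, 6, 7 or 8 or ko 1 or 2, with values between 0.25 and 0.41 over all omissions.

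Rsad2, the gene of viperin, which makes a chain-terminating nucleotide, averaged 0.94 CPM in wild-type add-back, 0.11 CPM in mutant add-back, 0.19 CPM in ko and 0.52 CPM in wild-type cells. It stayed under 1 CPM in every group mean, yet was called lower in ko against wild-type cells (-1.29 ± 0.38) and higher in wild-type add-back against ko cells (2.17 ± 0.44). Within tiers it was called in the low tier (-2.24 ± 0.53) and not in the middle tier (-0.35 ± 0.52). Mx1 and Mx2, both annotated as transcribed pseudogenes in the mouse reference, had at most 0.11 and 0.16 CPM in any library.

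In the ISG15 system, Trim25 and Usp18 were higher in ko cells. Trim25 had 228, 231 and 244 CPM in wild-type add-back libraries, 258 and 269 CPM in mutant add-back libraries, 282, 292, 297, 303 and 289 CPM in ko libraries and 177 to 280 CPM in wild-type libraries, with a median of 198 CPM. Every ko library lay above every other library, although the wild-type libraries of the low tier, at 277 to 280 CPM, came close to them. The log2 fold change was 0.39 ± 0.11 (adjusted p = 0.0054) over all libraries and 0.54 ± 0.06 within the middle tier, and was not called within the low tier (0.09 ± 0.05).

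Usp18, which encodes the protease that removes Isg15 from proteins and restrains the type I receptor, had 1.10 and 1.01 CPM in the middle-tier ko libraries and 0.11 to 0.27 CPM in the low-tier ko libraries. Wild-type libraries had 0 to 0.19 CPM and mutant add-back libraries 0.40 and 0.23 CPM. It was called higher in ko against wild-type cells (2.83 ± 0.59) and, within tiers, in the middle tier alone (3.95 ± 0.67, against 1.21 ± 0.87 in the low tier). Usp18 passed the filter on low counts only through the middle-tier ko libraries, so these calls rest on the libraries that admitted it. Its gene body overlaps that of the non-coding RNA gene Gm44148 on the opposite strand by 15743 bases, so that its few counts may in part belong to that gene. The 3 wild-type add-back libraries held 1 count of Usp18, against 64 counts in the 5 ko libraries, a ratio of ko over wild-type add-back of 28.5 after scaling, with a 95% exact interval of 4.93 to 1142 that covers counting error only. The fitted log2 fold change of -4.40 ± 1.18 in wild-type add-back against ko cells rests on that count and is no bound. Isg15 had 0.12 to 0.35 CPM in ko and at most 0.22 CPM in wild-type libraries.

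Parp9, Dtx3l and Parp14 lie together on chromosome 16, and all 3 were lower in ko cells. Parp9 and Dtx3l encode a paired ADP-ribosyltransferase and ubiquitin ligase, and Parp14 a large ADP-ribosyltransferase that modifies interferon signalling. Parp14 had 14.7, 12.7 and 15.5 CPM in wild-type add-back libraries, 5.06 and 6.89 CPM in mutant add-back libraries, 4.33, 4.02, 6.21, 5.51 and 5.93 CPM in ko libraries and 12.0 to 19.4 CPM in wild-type libraries, with a median of 14.5 CPM. All mutant add-back and ko libraries of Parp14 lay below all wild-type add-back and wild-type libraries. Its log2 fold change was -1.57 ± 0.15 in ko against wild-type cells (adjusted p = 7.1e-08), -1.72 ± 0.14 and -1.65 ± 0.12 within the middle and low tiers, and 1.47 ± 0.18 in wild-type add-back against ko cells (adjusted p = 3.1e-06).

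Dtx3l and Parp9 differed less. Dtx3l had 17.0, 15.9 and 16.7 CPM in wild-type add-back libraries, 7.41 and 10.4 CPM in mutant add-back libraries, 9.37, 9.55, 14.7, 12.2 and 14.3 CPM in ko libraries and 14.9 to 18.9 CPM in wild-type libraries, with a median of 15.7 CPM. The mutant add-back and middle-tier ko libraries of Dtx3l were the lowest, and no ko library reached the wild-type range. Its log2 fold change in ko against wild-type cells was -0.44 ± 0.12 over all libraries, -0.80 ± 0.14 within the middle tier and -0.20 ± 0.11, not called, within the low tier, and the wild-type add-back against ko call (0.46 ± 0.15) ended on leaving out wild-type add-back replicate 1 or 3, with values from 0.38 to 0.55 over all omissions.

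Parp9 had 11.9, 11.3 and 11.0 CPM in wild-type add-back libraries, 7.87 and 8.82 CPM in mutant add-back libraries, 10.004, 9.94, 11.2, 10.6 and 10.5 CPM in ko libraries and 11.4 to 16.7 CPM in wild-type libraries, with a median of 12.7 CPM. Its ko libraries lay below the wild-type ones but overlapped those of the wild-type add-back. The log2 fold change was -0.33 ± 0.10 in ko against wild-type cells, with no call within the low tier (-0.15 ± 0.11), and 0.45 ± 0.16 in wild-type add-back against mutant add-back cells, a call lost on leaving out any single add-back library (0.38 to 0.55). Parp9 and Dtx3l overlap by 558 bases on opposite strands, and whether counting used strand is not given in the sources used here, so reads in the overlap may have been counted for either.

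Of the other induced genes, Xaf1 was higher and Gbp2 lower in ko cells. Xaf1, which encodes a binding partner of the apoptosis inhibitor XIAP, had 13.3, 14.3 and 12.9 CPM in wild-type add-back libraries, 37.6 and 37.8 CPM in mutant add-back libraries, 22.1, 23.3, 39.6, 41.0 and 37.1 CPM in ko libraries and 7.59 to 12.4 CPM in wild-type libraries, with a median of 10.6 CPM. Every ko and mutant add-back library lay above every library of the other groups. The log2 fold change was 1.66 ± 0.15 in ko against wild-type cells (adjusted p = 3.8e-08), 1.53 ± 0.11 within the middle tier and 1.84 ± 0.09 within the low tier, and -1.27 ± 0.21 in wild-type add-back against ko cells (adjusted p = 7.0e-05).

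Gbp2 encodes a guanylate-binding GTPase that attacks the vacuoles of intracellular pathogens, and it is induced strongly by type II interferon. Its promoter is printed as the opposite case to Stat2, an ISRE core in the same orientation in a gene that was lower in ko cells. The window is chr3:142620413-142620712 on the plus strand of GRCm38.p6, with the core in capitals 59 bases before the start.
Gbp2: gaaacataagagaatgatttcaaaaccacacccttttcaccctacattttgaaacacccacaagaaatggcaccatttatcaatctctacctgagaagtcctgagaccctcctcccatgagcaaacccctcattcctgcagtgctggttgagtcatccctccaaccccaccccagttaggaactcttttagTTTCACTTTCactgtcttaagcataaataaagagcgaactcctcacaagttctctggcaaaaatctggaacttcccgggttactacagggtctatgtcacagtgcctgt
Gbp2 averaged 2.24 CPM in wild-type add-back cells (1.54 to 2.70), 0.11 CPM in both mutant add-back libraries, 0.20 CPM in ko cells (0.053 to 0.39) and 2.94 CPM in wild-type cells (1.75 to 5.46). No ko or mutant add-back library came near the lowest of the others. The log2 fold changes were -3.76 ± 0.41 in ko against wild-type cells (adjusted p = 3.7e-07) and 3.34 ± 0.47 in wild-type add-back against ko cells (adjusted p = 1.8e-05).

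Ifi35 and Ifi27 completed the induced genes that were tested. Ifi35 averaged 2.30 CPM in wild-type add-back, 2.72 CPM in mutant add-back, 1.74 CPM in ko and 2.19 CPM in wild-type cells and was not called in ko against wild-type cells (-0.34 ± 0.17). Ifi27 was called higher in ko cells (1.46 ± 0.46) at levels under 1 CPM in all groups, with 0.06 ± 0.57 within the low tier, and it lies wholly within Ifi27l2a on the opposite strand, so its few counts may belong to either. Ifi27 passed the filter on low counts only through ko 1 and mutant add-back 1. Ifi44 was at 0 in all wild-type add-back, mutant add-back and wild-type libraries, the 8 wild-type libraries allowing up to 0.015 CPM over the group, and had 0.12 CPM in each of the middle-tier ko libraries.

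RefSeq promoter windows were matched for 25 of the 34 members. The ISRE core (GAAA, any 2 bases, GAAA), searched on both strands, occurred in 14 of these 25 members (56.0%) and in 3.99% of 27025 genes. These were Isg15, Oas1c, Gbp2, Ifit1, Ifit3, Eif2ak2, Stat2, Ddx58, Oas1g, Oas3, Oas1a, Rsad2, Bst2 and Ifih1. The 10 of them that were tested included 7 members lower and 2 higher in ko than in wild-type cells and 1 not called, beside 14 lower and 7 higher among all 26 tested members and 28.2% lower and 26.8% higher among all tested genes. A GAS core, TTCNNNGAA, was present for 6 members (24.0%), namely Ifit2, Irf1, Eif2ak2, Oas1a, Bst2 and Ifi35, and in 9.55% of all genes. A match is a description of the reference sequence, taken from a different strain from these cells, and says nothing on binding.

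Within depth tiers, 12 of the 26 members were called the same way in both, namely Ifit2, Irf9, Stat2, Oas1a, Oas1g, Oas2, Oas3, Bst2, Ddx58, Xaf1, Parp14 and Gbp2, and none was called in opposite ways. A further 9 were called in the middle tier alone, where those of Oas1c, Oasl1 and Parp9 were lost on leaving out single middle-tier libraries, Rsad2 was called in the low tier alone and 4 were called in neither. How many of all tested genes followed each of these patterns was not counted, so the patterns cannot be called a trait of the members. In the middle tier 21 members were called, 13 lower and 8 higher, beside 61.8% of all tested genes (31.9% lower and 29.9% higher), and in the low tier 13 were called, 9 lower and 4 higher, beside 60.1% (30.8% lower and 29.3% higher). With the low-tier libraries fitted alone 13 of 24 members were called, beside 66.6% of all tested genes, with 9 lower (34.2% of all) and 4 higher (32.5%). A test of the difference between the tiers' ko effects called 9 members, beside 26.8% of all tested genes. The ko libraries also differed between tiers in markers of other cells, since the extraembryonic endoderm markers summed to 6447 to 6934 CPM in middle-tier ko libraries and 1661 to 1736 CPM in low-tier ko libraries, and the fibroblast markers to 3048 to 3307 CPM and 1299 to 1353 CPM. The ES cell markers summed to 4623 to 4664 CPM in middle-tier ko and 5517 to 5537 CPM in middle-tier wild-type libraries, and to 5968 to 6201 CPM in low-tier ko and 5412 to 5571 CPM in low-tier wild-type libraries. The part of these markers in the tier differences was not tested.

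Libraries of 1 genotype differed between the depth tiers in these genes no more often than in all tested genes. Among wild-type libraries, middle against low tier, 9 of the 26 tested members were called (edgeR, adjusted p under 0.05), beside 43.5% of all tested genes (21.6% higher and 21.9% lower). Oas1b (1.32), Oas1c (1.07), Oas3 (1.01), Stat2 (0.53) and Bst2 (0.50) were higher in the middle tier on the log2 scale, and Ddx58 (-1.20), Trim25 (-0.49), Xaf1 (-0.48) and Parp14 (-0.42) were lower. Among ko libraries 10 members were called, beside 43.8% of all tested genes (20.3% higher and 23.5% lower). Usp18 (2.47), Oasl2 (2.00) and Bst2 (0.42) were higher in the middle tier, and Ifit2 (-1.80), Irf1 (-1.16), Xaf1 (-0.79), Oas1g (-0.71), Dtx3l (-0.54), Parp14 (-0.49) and Ddx58 (-0.38) were lower.

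**Figure D5:**
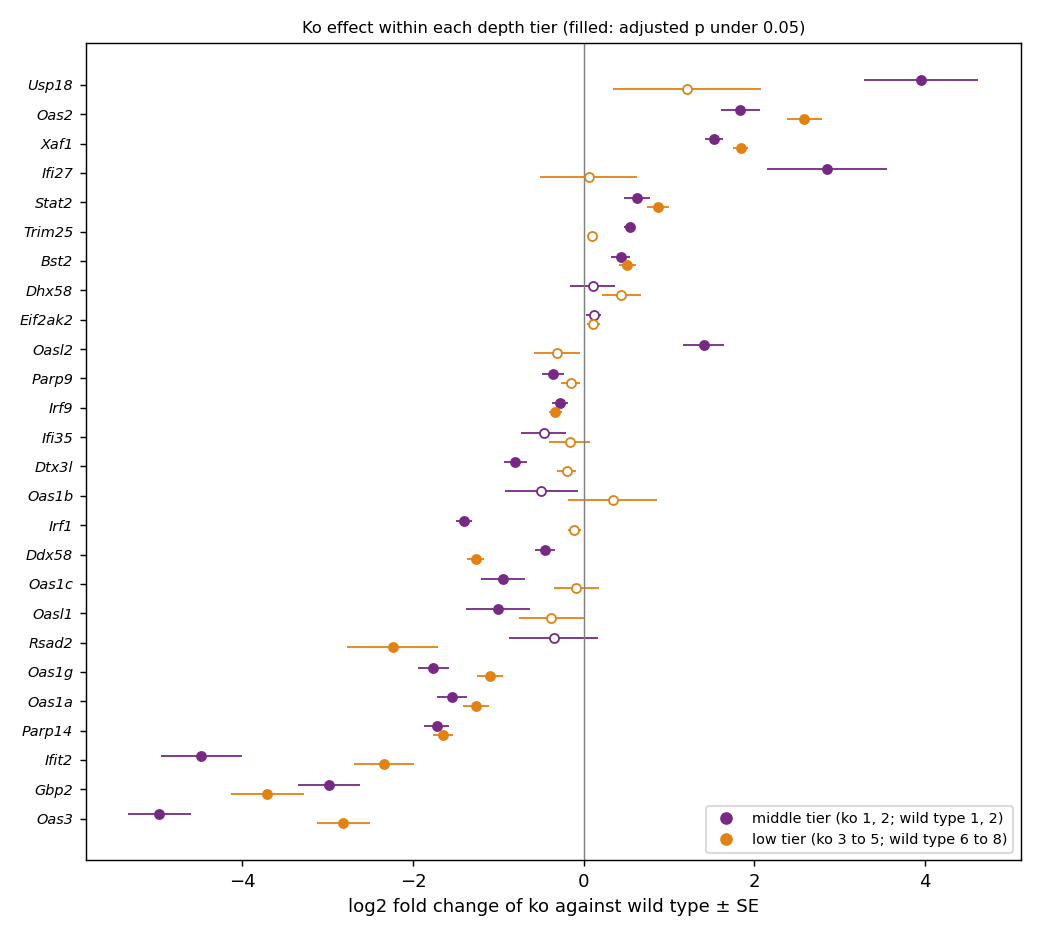
Log2 fold change of ko against wild type (x axis, ± SE) within the middle tier (ko 1 and 2 against wild type 1 and 2) and the low tier (ko 3 to 5 against wild type 6 to 8), for the 26 members tested, with filled points at adjusted p under 0.05. The pairs of points lie close for Parp14, Bst2 and Irf9, and far apart for Irf1 (-1.40 and -0.11), Oasl2 (1.41 and -0.31) and Ifi27 (2.85 and 0.06).

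At matched depth some members were called between mutant add-back and ko cells, in a share near that of all tested genes. With the low tier alone, which holds all add-backs, 24 members could be tested and 7 were called in mutant add-back against ko cells, beside 25.4% of all tested genes (12.9% higher and 12.5% lower). These were Bst2 (0.35), Ifi35 (0.62) and Ddx58 (0.34), which were higher, and Irf1 (-0.32), Parp9 (-0.37), Dtx3l (-0.62) and Trim25 (-0.17), which were lower in mutant add-back cells. In the same libraries 17 members were called in wild-type add-back against ko cells, 12 higher and 5 lower, beside 64.9% of all tested genes (33.1% higher and 31.8% lower), among them Gbp2 (4.03), Ifit2 (2.91), Oas3 (2.85), Oas2 (-2.30) and Xaf1 (-1.54). Against the wild type, 16 members were called in mutant add-back cells, 12 lower and 4 higher, beside 45.5% of all tested genes (23.5% lower and 22.1% higher), a comparison that shares its wild-type libraries with the ko one. Gbp2 (-4.64), Oas3 (-4.02), Ifit2 (-3.60), Rsad2 (-2.10), Oas2 (2.08) and Xaf1 (1.87) had the largest values among them. Without mutant add-back replicate 1 the count of members called was 10.

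Between wild-type add-back and wild-type cells no member was called over all libraries, and some were at matched depth, in a share near that of all tested genes. The edgeR fit of all libraries called none, with 4 at an unadjusted p under 0.05 (15.2% of all tested genes) and 1.60% of all tested genes called. DESeq2 called none. With depth tier as an additive term 4 members were called, beside 1532 of all 14901 tested genes. The fold changes of the fit of all libraries ran from -1.57 for Usp18, which rests on 1 count in wild-type add-back cells, to 0.88 for Rsad2. With the low tier alone 9 of 24 members were called, beside 33.0% of all tested genes (16.0% higher and 17.0% lower). Of these, Irf1 (0.61), Stat2 (0.53), Oas1a (0.29), Oasl2 (0.97), Bst2 (0.57) and Xaf1 (0.30) were higher and Ddx58 (-0.36), Parp14 (-0.37) and Trim25 (-0.24) were lower in wild-type add-back cells.

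The genes upstream of the response were examined as lists of other pathway members. Interferon genes themselves had almost no counts, as none of the 19 ligand genes in the table passed the filter, and their summed level was at most 0.062 CPM in wild-type add-back, 0.11 CPM in mutant add-back, 0.079 CPM in ko and 0.044 CPM in wild-type libraries. Of the 14 receptor and signalling genes, 5 were higher and 2 lower in ko than in wild-type cells, beside 26.8% and 28.2% of all tested genes, with a median of 0.23 against -0.01 for all tested genes. The higher ones included Ifngr2 (0.66) and Il10rb (0.96), which encode chains of the type II and type III receptors, and the kinases Jak1 (0.64) and Jak2 (0.73). Jak1 averaged 79.9 ± 1.65 CPM in wild-type add-back, 135 ± 13.3 CPM in mutant add-back, 141 ± 7.13 CPM in ko and 90.3 ± 5.53 CPM in wild-type cells (SD). The lower ones were Ifnlr1 (-0.68), the other type III chain, and Ptpn2 (-0.25), a phosphatase that acts on Jak1. In wild-type add-back against ko cells the called values included -1.03 for Il10rb, -0.82 for Jak1, -0.87 for Jak2, -0.51 for Ifnar2, 0.54 for Ifnlr1 and 0.38 for Ptpn2.

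Of 19 nucleic acid sensing genes tested, 4 were higher in ko than in wild-type cells (Mavs, Myd88 and Ikbke among them) and 2 lower (Tlr3 and Samhd1), beside 26.8% and 28.2% of all tested genes, with a median of 0.04.

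A further list of 36 tested interferon-induced genes that are no members held 11 higher and 11 lower in ko than in wild-type cells, beside 26.8% and 28.2% of all tested genes, with a median of -0.06. The lower genes included the immunity-related GTPases Igtp (-3.68 ± 0.34) and Irgm2 (-3.96 ± 0.35), the guanylate-binding Gbp4 (-2.89 ± 0.32), the antibody receptor and ubiquitin ligase Trim21 (-3.62 ± 0.36) and the helicase gene Helz2 (-2.17 ± 0.16). In wild-type add-back against ko cells these genes were higher, by 1.92 for Helz2 to 3.85 for Irgm2. A gene that passed the filter on low counts through its high groups alone, such as Igtp or Irgm2, had to differ. The higher genes included Tap1 (1.38 ± 0.17), Tap2 (1.02 ± 0.25), Tapbp (0.87 ± 0.11), Psmb9 (1.09 ± 0.13) and H2-D1 (0.78 ± 0.14). In wild-type add-back against ko cells Tap1 had -1.85 and Tapbp -0.83, and the values of the others are not reported here. These genes act in antigen presentation by class I molecules. Psmb8, Psmb10, B2m, H2-K1 and Nlrc5 of the full list do too, but are not reported here, so the named genes do not stand for that pathway. Irgm2 had 1.85 to 2.29 CPM in wild-type add-back, 0.29 to 0.34 CPM in mutant add-back, 0 to 0.29 CPM in ko and 1.53 to 2.84 CPM in wild-type libraries.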

How the data were processed

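The values analysed were whole-number counts per gene, as deposited by the authors in 1 table of 24116 genes with exonic lengths, for 18 RNA-seq libraries made with a strand-keeping poly(A) kit, per the labels' protocols. Reads were handled with bcl2fastq 2.17 and STAR against mm10 (GRCm38), per the submitters' processing notes, while how reads were assigned to genes, and whether by strand, is not given in the sources used here. From the counts, edgeR 4.0.16 (R 4.3.3) gave TMM scaling, a filter on low counts (minimum count 10, 14901 genes kept), 1 mean per group, a robust quasi-likelihood test and Benjamini-Hochberg adjustment over all tested genes, with calls at an adjusted p under 0.05. Levels are CPM, counts scaled by the TMM-adjusted library size, and per kb of exon where genes are compared. Within-tier values come from 1 joint fit of group and depth tier (bounds at 20 and 30 M counts). The common biological coefficient of variation was 0.169, and 0.073 in the joint fit with 1 mean per group and tier. The fits were tested on simulated data. DESeq2 1.42.0, other scalings, no filter, depth tiers, the replicate number and each library left out were tried as alternatives. Promoter windows and positions are from RefSeq GRCm38.p6, the reference strain, and not from these cells.

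All 34 members are described, with library values for those called in ko against wild type or in wild-type add-back against ko at 5 CPM or more in a group, and the members, lists and tests were chosen with earlier results of these data known. Each library was counted as 1 replicate. The chi-square per gene, near 1 for counting noise alone, was 1.45 to 2.48 between same-group wild-type or ko libraries within the low or middle tier. Between tiers it was 29.4 to 65.3. Among the 3 high-tier wild-type libraries it was 15.0 to 38.6, which overlaps the range between tiers. It was 13.2 between the mutant add-back libraries and 2.03 to 6.35 among the wild-type add-back libraries. Wild-type and ko libraries of the low and middle tiers thus cluster by tier, while the high tier does not. The pooled p-values treat all libraries as independent. The within-tier p-values come from the joint fit, whose spread also takes in the high tier and the add-backs. Between the wild-type or ko libraries of the low and middle tiers the spread is small and may be largely technical. Floors for 0 counts use 3 counts over a group and, like the interval given, cover counting error only. Coordinates are 1-based. Some genes of the pathway lists are not reported here.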

Additional observations from a re-analysis of the deposited data

Results flagged for a closer look

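For 9 members the ko against wild-type effect differed between the depth tiers by a test of the difference itself (middle minus low tier, log2, edgeR adjusted p under 0.05). The difference was -2.14 for Ifit2, -1.29 for Irf1, -0.67 for Oas1g, -2.16 for Oas3, 1.72 for Oasl2, 2.80 for Ifi27, 0.81 for Ddx58, -0.60 for Dtx3l and 0.45 for Trim25. The Oas1g call was lost on leaving out any of 12 libraries (-0.79 to -0.54) and with DESeq2 or no filter (-0.66), that of Ifi27 on leaving out wild type 1, 2, 6 or 8 or ko 4 or 5 (2.34 to 3.38), that of Ifit2 without wild type 1, ko 2 or ko 5 (-3.35 to -1.48), that of Oas3 without ko 2 or 4 (-2.61 to -1.80) and that of Dtx3l without wild type 2, ko 1 or ko 2 (-0.66 to -0.53). The ranges are over all single omissions. Middle-tier and low-tier libraries differ in depth and in the marker sums given with the tier results, and the part of either was not tested.

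In 2 of the 52 groups of 4 to 10 libraries examined, 1 library stood apart from the rest, where chance gives about 1 in 20. The highest wild-type library for Oas1a had 11.2 CPM, and the highest ko library for Ifi27 had 0.67 CPM.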

How the results depend on the processing

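The members called in ko against wild-type cells numbered 21 to 22 under the other scalings, without the filter and with DESeq2, beside 21. With the low tier alone 13 were called there, 7 in mutant add-back against ko, and 9 in wild-type add-back against wild-type cells. All genes called with the low tier alone were 3683 in mutant add-back against ko, 9744 in wild-type add-back against mutant add-back and 4786 in wild-type add-back against wild-type cells. With depth tier as an additive term, 480 genes were called in mutant add-back against ko and 1532 genes, 4 of them members, in wild-type add-back against wild-type cells. DESeq2 called 333 and 486 genes in these 2 comparisons. Without the high tier, an alternative chosen after seeing the data, 134 genes were called in mutant add-back against ko cells. With the replicate number as a block, 1002 genes and 3 members (Ddx58 0.74, Xaf1 0.66 and Trim25 0.29, all higher) were called in wild-type add-back against wild-type cells, and the ko against wild-type calls of Stat2 (0.24) and Bst2 (0.15) were lost. The numbers do not pair the libraries, as 4 of 17 same-number pairs correlated above 0.1 and 4 of 34 library and group pairs matched best by number.

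On leaving out 1 library, all genes called ran from 4 to 143 in mutant add-back against ko (changed without ko 1 or either mutant library), from 3675 to 6912 (10 to 17 members) in mutant add-back against wild type and from 3014 to 5658 in wild-type add-back against mutant add-back (both changed without mutant add-back 1), and from 44 to 260 in wild-type add-back against wild type (changed without any wild-type add-back library). Calls of opposite sign to the value over all libraries, none of which was itself called, were Stat2 in wild-type add-back against wild type (0.48 with the additive tier, 0.53 in the low tier) and, in the low tier, Irf1 in mutant add-back against ko (-0.32) and Ddx58 (-0.36) and Trim25 (-0.24) in wild-type add-back against wild type, both of which the replicate block called higher. The low tier alone also ended the ko against wild-type calls of Irf1, Oas1c, Oasl1, Parp9, Dtx3l and Trim25, and leaving out the high tier those of Oas1c, Oasl1 and Ifi27. The cause of these changes was not tested. At this depth 8 members had too few counts to be tested.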

Other observations

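The genes given here were chosen after their values were seen. Tap1, a peptide transporter for class I antigen presentation, averaged 5.52 ± 0.47 CPM in wild-type add-back, 19.4 ± 0.94 CPM in mutant add-back, 19.9 ± 5.07 CPM in ko and 7.60 ± 2.23 CPM in wild-type cells (SD). Igtp, an immunity-related GTPase, averaged 2.17 ± 0.57 CPM in wild-type add-back, 0.14 ± 0.04 CPM in mutant add-back, 0.18 ± 0.11 CPM in ko and 2.54 ± 0.85 CPM in wild-type cells. It passed the filter on low counts through its high groups alone. Cxcl10, a chemokine induced by both interferon types, was higher in ko against wild-type cells (2.12 ± 0.22), with 2.89 ± 0.30 CPM in wild-type add-back, 4.51 ± 1.18 CPM in mutant add-back, 3.16 ± 1.26 CPM in ko and 0.74 ± 0.12 CPM in wild-type cells, and was not called in wild-type add-back against ko cells.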
